A study of Mus musculus with 4 samples.

Results

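The genes described here encode the proteins of the mitochondrial ribosome, measured in mouse intestinal CD4 T cells with and without expression of the receptor gene Gpr15. Members were all genes whose symbol begins with Mrpl or Mrps followed by a number, which name proteins of the large and of the small ribosomal subunit, and each gene was represented by its single-symbol probe set of highest mean over the 4 arrays. This gave 76 genes among 18194 genes on the array. The animals, of mixed 129/B6 background, were heterozygous for a green fluorescent protein (GFP) knock-in at the Gpr15 locus, so both groups carry 1 disrupted Gpr15 allele. CD4 T cells freed from the large intestine lamina propria with collagenase were sorted by GFP into a GFP-positive group, which marks Gpr15 expression, and a GFP-negative group. Each group has 2 Affymetrix arrays, numbered replicate 1 and replicate 2, and signals are given in that order. The labels give neither the animals' age nor how many mice were pooled.

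The mitochondrial ribosome makes the few proteins encoded by mitochondrial DNA, which are core subunits of the respiratory chain and of ATP synthase. Its own proteins are encoded in the nucleus, made in the cytosol and imported. Part of them have counterparts in bacterial ribosomes and part exist only in mitochondria. In T cells, mitochondrial translation is known to support proliferation after activation and the effector functions that depend on respiration.

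The sort was visible in Gpr15, with signals of 146 and 162 without GFP against 619 and 729 with GFP, a log2 difference of 2.02 (limma, adjusted p = 0.083). The T cell markers Cd4, Cd3e, Cd3d, Cd3g, Cd5 and Cd28 were all bright, with differences between -0.35 and 0.12. The series text writes the GFP-negative cells in a form that can be read as CD4-, while the sample titles say CD4, and Cd4 had signals of 501 and 587 without GFP against 540 and 533 with GFP. The replicate numbers also differ in sex-linked genes. Xist was at 4172 and 4313 on the replicate 1 arrays and at 55.1 and 112 on the replicate 2 arrays. Y-linked Eif2s3y was at 18.9 and 5.08 on the former and at 2329 and 2177 on the latter. Replicate 1 thus reads as female and replicate 2 as male material, so the numbers hold different animals. The spread behind each p-value is that between arrays of such animals and includes any difference between the sexes. Differences are also given within each number. All 6 myeloid markers listed were above the filter on dim genes, a signal of 27.3, and their summed signal was 213 and 570 without GFP against 421 and 1380 with GFP. In that sum H2-Aa alone read 69.9 and 345 against 180 and 826. The 5 epithelial markers, of which 4 were above the filter, summed to 342 and 385 against 1203 and 341. Of these, Epcam was at 72.3 and 42.5 against 246 and 175, while Krt8, Cdh1, Krt20 and Muc2 were higher only within replicate 1. The 3 stromal and endothelial markers, all above the filter, summed to 294 and 850 against 431 and 720. B cell markers summed to 85.0 and 146 against 203 and 156, CD8 T cell markers to 76.9 and 61.4 against 64.4 and 84.7, and mast cell markers to 90.1 and 63.7 against 155 and 275. Of the mast cell markers, Kit was at 64.4 and 26.5 against 98.1 and 270, and Cpa3 at 25.6 and 37.1 against 56.7 and 5.20. Among the markers of these other cell types, Muc2, Cpa3 and Cd8b1 lay below the filter. The part of these cells in the differences below was not tested. In sorted bulk samples fewer cells of a type and less RNA per cell cannot be told apart.

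On the deposited scale, most members of the mitochondrial ribosome differed little between the groups in measured signal. With 2 arrays a group, this does not show that transcript levels were equal. Array scale and group also cannot be told apart. Under median scaling of the arrays the members' median was -0.37, and that of all tested genes was -0.20. Log2 differences, GFP-positive minus GFP-negative on the log2(signal + 16) scale, ran from -0.87 for Mrpl45 to 0.86 for Mrpl38, so none of the 73 tested members differed by 2-fold on that scale, and 63 of them differed by less than 0.5. Adding 16 shrinks the differences of dim genes: with a pseudocount of 1, Mrpl45 was at -1.44 and Mrpl38 at 1.27. The deposited signals averaged 48.1 without GFP against 21.3 with GFP for Mrpl45, a difference of more than 2-fold. Those of Mrpl38 also differed by more than 2-fold, in the other direction, and Mrpl45 was at -1.11 under cyclic loess and -1.08 under median scaling. Of all 12253 tested genes 4.71% differed by at least 2-fold with the groups apart. The members' interquartile range was -0.24 to 0.10, a span of 0.35, against -0.18 to 0.38, a span of 0.56, for all tested genes. The members' median was -0.08 and that of all tested genes 0.07. Taken inside each replicate number, the members had -0.07 and -0.05 and all tested genes 0.07 and 0.06.

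No member passed limma's test at an adjusted p under 0.05 in either direction, where 0.0326% of all tested genes were called higher and 0.00% lower. Before adjustment, 1 member, Mrps15, had a p under 0.05 on the lower side and 0 on the higher, against 4.37% and 10.2% of all tested genes. The groups did not overlap for 10 members that were higher in GFP-positive cells and 15 that were lower, which is 13.7% and 20.5% of the tested members beside 28.7% and 18.6% of all tested genes. This split moved with the scaling of the arrays: it was 5 higher and 22 lower under both quantile and cyclic loess normalization, and 1 and 44 under median scaling, a setting that shifts all tested genes by -0.27 at the median. Shares of all tested genes are not given for these settings, so their counts are no result about the members. On the deposited scale, the share of members apart on the lower side is near that of all tested genes, and that on the higher side is below it. In all, 46 of 73 differences were below 0, or 63.0%, against 42.3% of all tested genes.

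**Figure D1:**
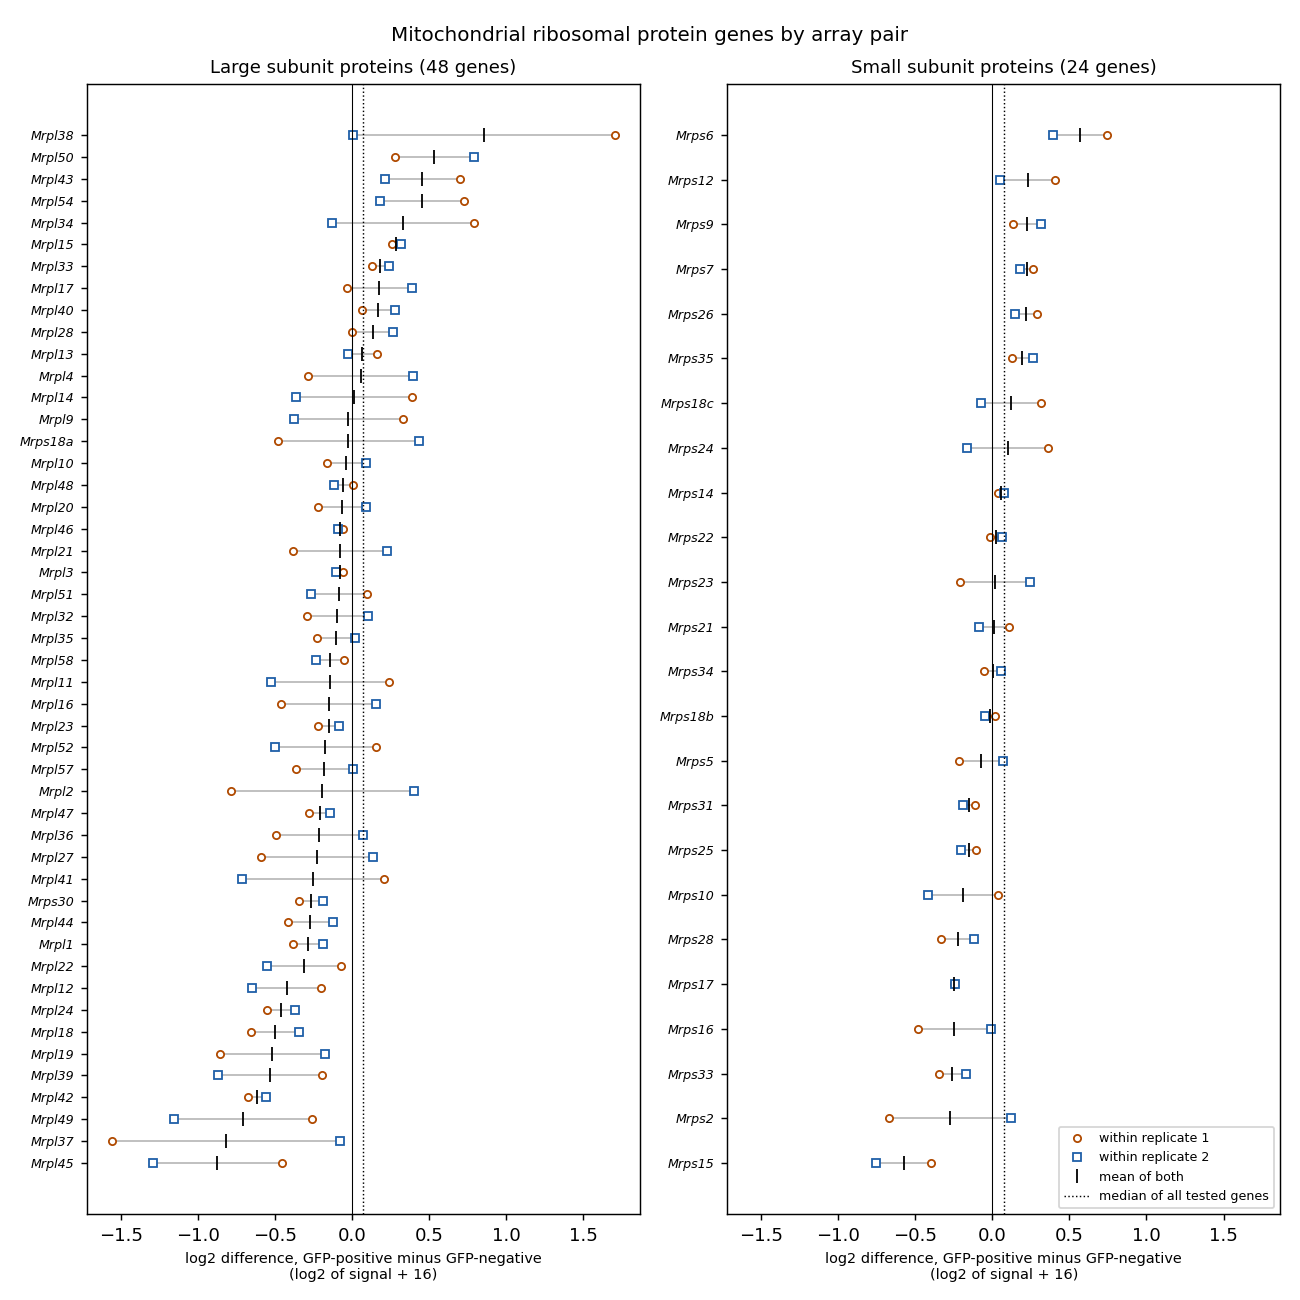
Log2 differences, GFP-positive minus GFP-negative, of the tested large subunit (left, 48 genes) and small subunit (right, 24 genes) members, with an open circle for the replicate 1 pair of arrays, an open square for the replicate 2 pair, a bar for their mean and a dotted line at the median of all tested genes (0.07). Most pairs sit within 0.5 of 0, and the largest pair differences belong to Mrpl38, Mrpl37, Mrpl45 and Mrpl49.

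The replicate pairs set the scale of these differences. Replicate arrays of a group were apart by a median of 0.32 without GFP and 0.24 with GFP. The members' median absolute difference between the groups was 0.19. For all tested genes these values were 0.28, 0.26 and 0.27. A gap compares single arrays and a group difference compares means of 2 arrays, so their sizes are not directly comparable. These gaps also include any difference between the sexes of the replicate numbers. For 11 of the 73 members the group difference exceeded both replicate gaps, which is 15.1%, against 34.2% of all tested genes. Differences had the same sign within both replicate numbers for 16 higher members (21.9%, against 38.0% of all tested genes) and 25 lower ones (34.2%, against 26.4%), and opposite signs for 32. Across the 73 members the differences within replicate 1 and within replicate 2 had a Pearson correlation of 0.15 and a Spearman correlation of 0.14. Across all tested genes these were 0.40 and 0.38, where genes are not independent replicates.

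By array, the members' median signal was 147 and 140 without GFP against 132 and 141 with GFP, lowest in GFP-positive replicate 1. That array held the highest signal of 7 members, against 22 and 27 for the GFP-negative arrays and 17 for GFP-positive replicate 2. The lowest signals were spread more evenly, over 18 and 14 members without GFP against 20 and 21 with GFP. Without GFP-positive replicate 1 the members' median was 0.02, and its distance from the median of all tested genes was -0.06 in place of -0.16.

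Dim genes as a whole read higher on the GFP-positive arrays, so members were set beside genes of like signal. In the dimmest quintile of tested genes the median of all genes was 0.26, and that of the 5 members there was -0.19. In the second quintile these were 0.24 and -0.21 over 8 members, and in the third 0.11 and -0.08 over 29 members. In the brighter 2 quintiles, with 20 and 11 members, the members' medians of -0.07 and -0.09 lay beside -0.03 and -0.08 for all genes. The distance between members and all genes thus lay in the dim and middle range.

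**Figure D2:**
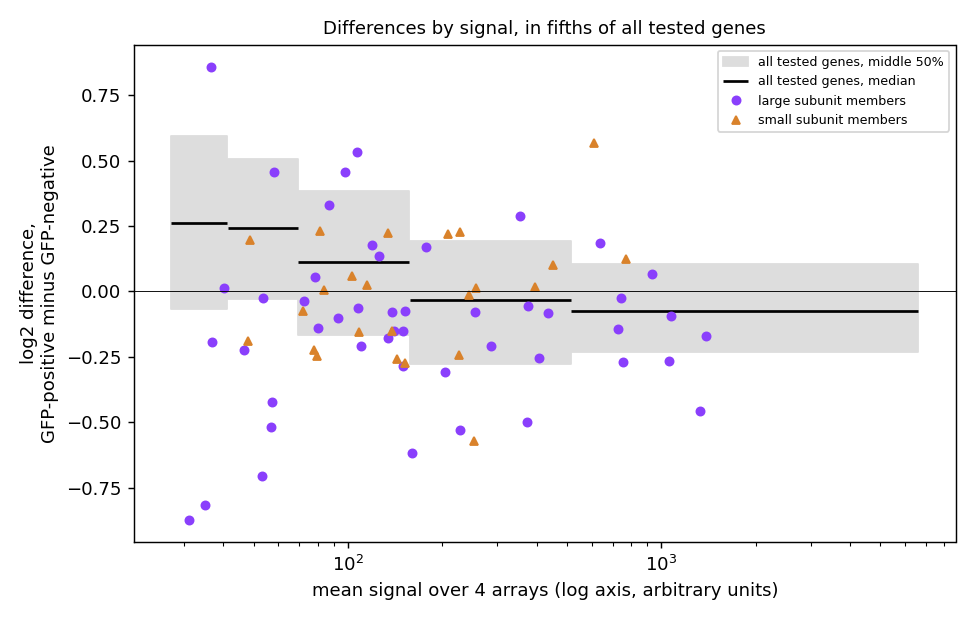
Log2 difference of each tested large (circles) and small (triangles) subunit member against its mean signal over the 4 arrays on a log axis, over the median (line) and the middle 50% (grey) of all tested genes in each quintile of signal. Mrps36, in neither subunit, is not drawn but counts in the members' medians. The line falls from 0.26 in the dimmest to -0.08 in the brightest quintile, while the members' medians stay between -0.21 and -0.07.

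The small subunit binds the messenger RNA and pairs codons with transfer RNAs. Its 24 tested members had a median of 0.01, with 13 above 0 and 11 below, and 4 apart on each side, or 16.7%, against 28.7% of all tested genes on the higher and 18.6% on the lower side. The values inside the replicate numbers were 0.00 and 0.02, and the median turned to -0.03 under cyclic loess, -0.04 under quantile normalization and -0.29 under median scaling. Members with a bacterial counterpart had a median of 0.01 over 15 genes, and those without one 0.00 over 9.

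Mrps6, the counterpart of bacterial S6 at the platform of the small subunit, had the highest difference of these. Its signals were 406 and 614 without GFP against 690 and 812 with GFP, so the groups were apart, though the GFP-negative arrays were farther from each other than the groups' nearest arrays. The log2 difference was 0.57 (95% interval -0.11 to 1.25, adjusted p = 0.404). Its other probe set gave 219 and 251 against 332 and 334, a difference of 0.48, so both probe sets had the groups apart in the same direction, with values of 0.74 and 0.39 within the replicate numbers for the first and 0.57 and 0.39 for the second. The difference of the first was 0.28 without GFP-negative replicate 1 and 0.26 under median scaling.

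Mrps15, the counterpart of bacterial S15, which binds the small subunit's RNA, stood at the other end. It had signals of 273 and 353 without GFP against 204 and 203 with GFP, a difference of -0.57 (-1.14 to -0.01, adjusted p = 0.340). That adjusted p is the smallest of all members. Its other probe set above the filter had 201 and 248 against 193 and 176, a difference of -0.26 in the same direction, again with the groups apart. One more probe set, below the filter, read 9.80 and 11.9 against 14.0 and 36.0, a difference of 0.56, and the mean of all 3 was -0.09 (adjusted p = 0.876).

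Further small subunit members with the groups apart and higher were Mrps12, Mrps9 and Mrps26, at 0.23, 0.23 and 0.22, which turned to -0.04, -0.07 and -0.08 under median scaling. Another probe set of Mrps9, of like signal, was at -0.31. Mrps12 belongs to the decoding centre, where codon and anticodon pairing is checked, and had signals of 71.3 and 76.4 against 99.7 and 79.9. Mrps9 reaches the site of the transfer RNA from the head of the subunit and had 202 and 217 against 224 and 274. Mrps26, a protein without bacterial counterpart, had 202 and 183 against 251 and 205. In all 3 genes the groups were separated by less than the spread within the GFP-positive group. Mrps33, Mrps28 and Mrps25 had the groups apart and lower, at -0.26, -0.23 and -0.15. They were chosen for mention after their values were seen.

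The large subunit forms the peptide bonds and holds the tunnel through which the new chain leaves. Its 48 tested members, with Mrps18a and Mrps30 counted here since their products sit in the large subunit despite the symbols, had a median of -0.12, with 35 below 0 and 13 above. The groups were apart and lower for 11 of them (22.9%, against 18.6% of all tested genes) and apart and higher for 6 (12.5%, against 28.7%). Inside the replicate numbers the median was -0.19 and -0.09, and without GFP-positive replicate 1 it was -0.00. The difference between the subunits' medians was not tested, since the genes were measured on the same 4 arrays. Members with a bacterial counterpart had a median of -0.10 over 28 genes and those without one -0.16 over 20. The latter spread more widely, with 65.0% of them under 0.5 in size against 96.4%. Of those beyond 0.5, Mrpl37, Mrpl38, Mrpl45 and Mrpl49 were dim, with mean signals of 31.2 to 53.1. Mrpl38, Mrpl39 and Mrpl50 had another probe set above the dim filter with the opposite sign, and Mrpl42 was the remaining gene.

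**Figure D3:**
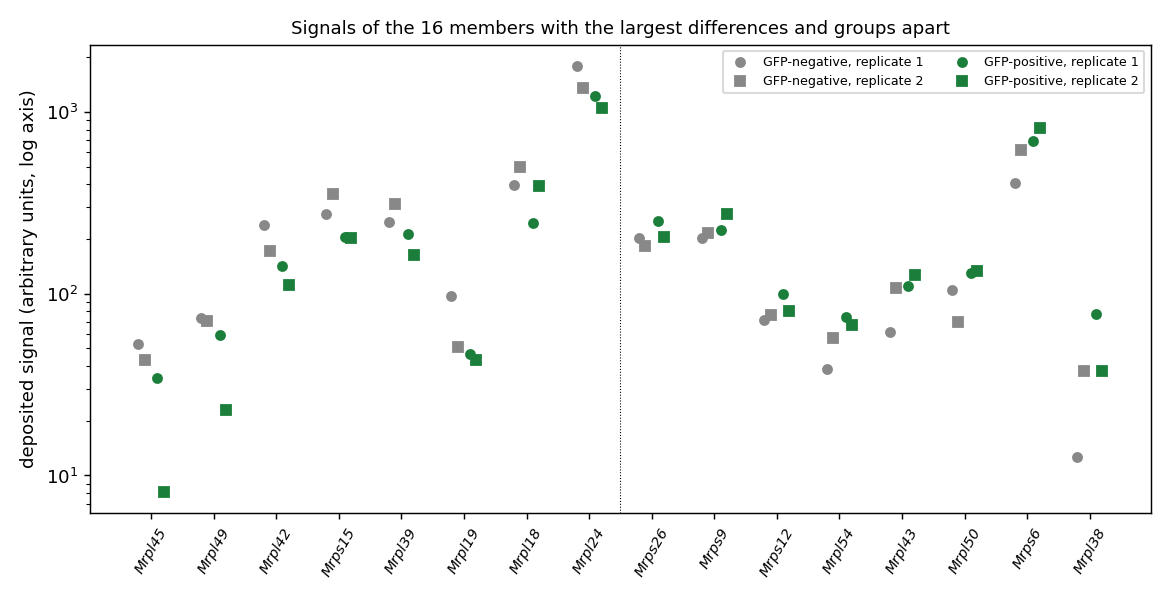
Deposited signals, on a log axis in arbitrary units, of the 8 members of the largest negative difference (left of the dotted line) and the 8 of the largest positive difference (right) among those whose groups did not overlap, in grey for GFP-negative and green for GFP-positive arrays, circles for replicate 1 and squares for replicate 2. Mrps15 has both GFP-positive arrays near 204, below both GFP-negative arrays, while Mrpl45 and Mrpl38 rest on dim signals. In Mrpl45 the GFP-positive replicate 2 array stands off. In Mrpl38 the replicate 1 arrays are far apart and the replicate 2 arrays are level.

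At the exit of the tunnel, Mrpl45 anchors the ribosome to the inner membrane, and Mrpl24, Mrpl22 and Mrpl23 line the rim in the manner of their bacterial counterparts. Mrpl45 had signals of 53.1 and 43.1 without GFP against 34.4 and 8.15 with GFP, a difference of -0.87 (-1.81 to 0.07, adjusted p = 0.368). It was also the member just above the dim filter, and its difference was -0.34 when GFP-positive replicate 2 was left out. Mrpl24 was bright, with signals of 1791 and 1355 against 1220 and 1047. Its difference of -0.46 (-1.06 to 0.15, adjusted p = 0.448) was -0.55 and -0.37 within the replicate numbers. Mrpl22 and Mrpl23, chosen after their values were seen, had the groups apart as well, at -0.31 and -0.15.

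Mrpl18, at the central protuberance that faces the small subunit, had signals of 396 and 499 against 246 and 390, a difference of -0.50 (adjusted p = 0.490). GFP-positive replicate 2 nearly met GFP-negative replicate 1, and the difference was -0.18 without GFP-positive replicate 1 and -0.81 without GFP-positive replicate 2. Mrpl12, the stalk protein that takes part in recruiting translation factors and that is also known to bind the mitochondrial RNA polymerase, had 62.8 and 75.1 against 52.7 and 42.1, a difference of -0.42 (adjusted p = 0.446), and was chosen after its values were seen. Mrpl19, a counterpart of bacterial L19 at the interface of the subunits, had 97.0 and 50.9 against 46.4 and 43.1, a difference of -0.52 (adjusted p = 0.490). That difference rested on GFP-negative replicate 1, without which it was -0.14.

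Members without a bacterial counterpart supplied the other large negative values. Mrpl42 had signals of 238 and 172 without GFP against 143 and 112 with GFP, a difference of -0.62 (-1.25 to 0.02, adjusted p = 0.351). It was at -0.68 and -0.56 within the replicate numbers, at -0.40 without GFP-negative replicate 1 and at -0.09 with the mean of its probe sets, of which the other lay below the dim filter. Mrpl39 had 246 and 311 against 214 and 164, a difference of -0.53 (adjusted p = 0.395), and Mrpl49 had 73.5 and 70.9 against 58.9 and 23.0, a difference of -0.71 (adjusted p = 0.411). For Mrpl49 the value was -0.24 without GFP-positive replicate 2 and -0.03 with the mean of probe sets, the other of which, below the dim filter, was at 0.65. Mrpl37 had a difference of -0.82 with overlapping groups, since GFP-positive replicate 1 read 4.90 where the other 3 arrays read 45.5 to 58.1.

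Among positive values of the large subunit, Mrpl50 had signals of 105 and 70.1 against 131 and 133, a difference of 0.53 (-0.09 to 1.15, adjusted p = 0.395). Mrpl43 had 61.4 and 107 against 110 and 126, and Mrpl54 had 38.6 and 57.2 against 74.3 and 67.1, with differences of 0.46 and 0.45 (adjusted p = 0.523 and 0.446). In both, GFP-negative replicate 1 was the lowest array, and without it the differences were 0.12 and 0.24. Mrpl38 had 12.7 and 37.4 against 77.5 and 37.6, so its difference of 0.86 (adjusted p = 0.402) was 1.71 within replicate 1 and 0.01 within replicate 2.

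The 6 members with the brightest probe sets were measured with the least influence of background. Besides Mrpl24 these were Mrpl52, Mrpl32, Mrps30, Mrpl13 and Mrps18c. Mrpl32, a protein that has to be trimmed by a protease of the inner membrane before it joins the ribosome, had signals of 1353 and 909 against 1102 and 979, with a difference of -0.09 (-0.76 to 0.57). Mrps30 had 1150 and 1170 against 902 and 1025, a difference of -0.27 (-0.79 to 0.26) with the groups apart. Mrpl52, Mrpl13 and Mrps18c had overlapping groups and differences of -0.17, 0.07 and 0.12, the last 2 turning to -0.25 and -0.19 under median scaling. For Mrpl52 and Mrpl13 this holds for the probe set used. Other probe sets of Mrpl52 were at -0.40 and -0.30 with the groups apart, and at -0.10 with overlap. Those of Mrpl13 were at 0.51 and -0.32, each with the groups apart, and at -0.02 with overlap. Signals of different probe sets do not rank the genes by abundance.

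Mrps11, Mrps27 and Mrpl55 lay below the dim filter and were not tested. Mrps11, just below it, had signals of 30.5 and 22.4 against 38.8 and 7.56. Mrpl58, which releases peptides from stalled ribosomes, had a difference of -0.14. Mrps36, whose product is now known as a subunit of the 2-oxoglutarate dehydrogenase complex and was left out of both subunit counts, had 0.16. Mrpl30 and Mrpl53 had only probe sets shared with a second symbol and are no members. The brighter of the Mrpl30 probe sets read 674 and 672 against 539 and 477, a difference of -0.40. The dimmer went the other way, with 31.9 and 34.6 against 63.2 and 40.1, a difference of 0.44. The Mrpl53 probe set read 59.2 and 45.4 against 83.9 and 66.0.

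Probe sets of the same gene often disagreed. Of the 76 members, 42 had several probe sets, and 33 had at least 2 above the dim filter. In 10 of these 33 all such probe sets had the same sign, 7 lower (Mrpl1, Mrpl11, Mrpl41, Mrpl47, Mrpl52, Mrpl58 and Mrps15) and 3 higher (Mrpl17, Mrpl33 and Mrps6). The median span between the probe sets of 1 gene was 0.53 on the log2 scale, wider than the members' interquartile range. The largest spans were 1.38 for Mrpl19, whose other probe set at 42.6 and 32.3 against 75.7 and 85.4 gave 0.86, and 1.26 for Mrpl21, at -0.08 and 1.18. Mrpl50 was at 0.53 and -0.53, Mrps25 at -0.15 and 0.85, Mrpl38 at 0.86 and -0.11, and Mrpl39 at -0.53 and 0.21. Of the 6 probe sets of Mrpl15, the only lower one was at -0.49 and the rest were from 0.24 to 0.42. For these genes the direction depended on the probe set, so the values given for them here hold for the probe set used and not for the gene as a whole. Mrps9 was at 0.23, with its other probe sets from -0.31 to 0.44. Averaging all probe sets of a gene, dim ones included, also brought Mrpl42 from -0.62 to -0.09, Mrpl49 from -0.71 to -0.03, Mrpl39 from -0.53 to -0.16 and Mrpl38 from 0.86 to 0.48.

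**Figure D4:**
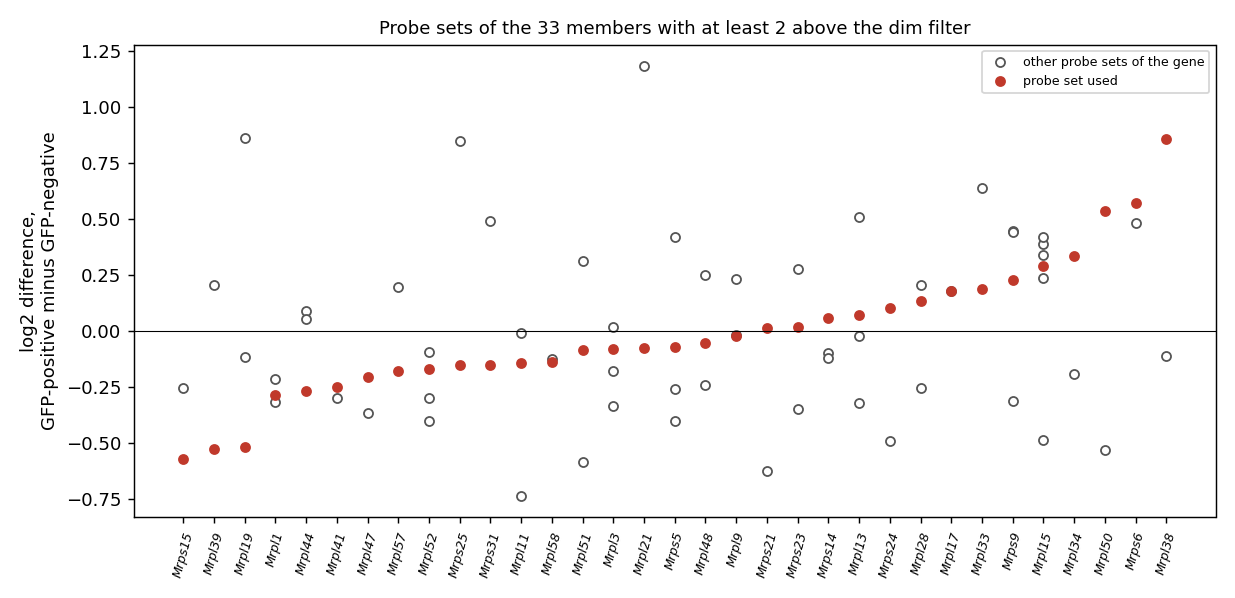
Log2 differences of every probe set above the dim filter for the 33 members that have at least 2, in the order of the probe set used (filled), with the gene's other probe sets as open circles. Mrps6 and Mrps15 have their probe sets on one side of 0, while Mrpl19, Mrpl21, Mrps25, Mrpl38 and Mrpl50 have them on both.

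Promoter sequence was set beside these values, since genes of the mitochondrial ribosome are known targets of NRF1, of GABPA and of YY1, factors of nuclear genes for mitochondria. RefSeq promoter windows of 300 bases (250 before to 50 after a start, build GRCm38.p6) matched 67 of the 76 members. Both strands were searched for GCGCA, any base and GCGC (NRF1), CCGGAAG (GABPA and other ETS factors) and AANATGGCG (YY1). The NRF1 letters were in 12 members, or 17.9%, against 5.19% of all genes with a window and 10.8% of those tested here. The ETS letters were in 25, or 37.3%, against 9.93% and 18.7%, and the YY1 letters in 11, or 16.4%, against 2.76% and 5.48%. The windows' median share of G and C was 58.7% for members and 52.7% for all promoters. The part of base composition in these shares was not tested. Median differences of tested members with and without the letters were -0.06 and -0.12 for NRF1, -0.04 and -0.15 for ETS, and -0.21 and -0.08 for YY1, given as descriptions. The 150 bases before the start are shown for 4 members from both ends of the list of differences, with the matches in capitals, to show promoters that hold the NRF1 letters (Mrpl45), the ETS letters (Mrpl43 and Mrps26) or none of the 3 in these bases (Mrps6). Matches at or after the start are not shown: Mrps26 also held the NRF1 letters from -2 to 7 and from 4 to 13, and Mrpl45 from 15 to 24, with positions counted from 0 at the start.
Mrpl45, chr11:97315566-97315715, plus strand: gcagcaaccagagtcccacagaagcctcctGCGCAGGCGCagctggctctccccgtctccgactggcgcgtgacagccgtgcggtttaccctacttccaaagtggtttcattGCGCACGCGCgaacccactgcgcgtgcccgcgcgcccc
Mrpl43, chr19:45006443-45006592, minus strand: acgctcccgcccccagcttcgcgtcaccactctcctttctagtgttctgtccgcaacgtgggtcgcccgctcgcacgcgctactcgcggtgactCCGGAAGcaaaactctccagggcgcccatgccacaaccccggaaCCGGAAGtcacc
Mrps26, chr2:130563607-130563756, plus strand: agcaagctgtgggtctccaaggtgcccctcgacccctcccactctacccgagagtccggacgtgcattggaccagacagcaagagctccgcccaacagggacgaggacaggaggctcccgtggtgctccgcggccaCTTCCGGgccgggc
Mrps6, chr16:92058186-92058335, plus strand: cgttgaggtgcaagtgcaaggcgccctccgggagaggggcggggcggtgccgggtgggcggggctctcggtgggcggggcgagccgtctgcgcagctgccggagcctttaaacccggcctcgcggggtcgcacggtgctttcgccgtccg

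The rest of mitochondrial gene expression was followed through lists of related genes, none of which held a called gene. Of the proteins of the mitochondrial ribosome that carry another symbol, 4 were tested. Dap3, a GTP-binding protein of the small subunit, differed by -0.27, Ptcd3, at the entry of the messenger RNA, by -0.22, Chchd1 by 0.17 and Gadd45gip1 of the large subunit by 0.73 (adjusted p = 0.339). Gadd45gip1 was dim, at 18.6 and 24.7 against 62.6 and 33.6.

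Translation factors and close partners had a median of -0.25 over 13 tested genes, with 7 below 0 and 6 above. The groups were apart and lower for 6 of the 13 (46.2%, against 18.6% of all tested genes) and apart and higher for 1, Gfm2. Gfm2 was at 0.13, at -0.01 with cyclic loess or quantile normalization and at -0.14 with median scaling. Mto1, which modifies the wobble base of mitochondrial transfer RNAs, had the largest difference, -1.18 (adjusted p = 0.250), on dim signals of 73.2 and 33.1 against 15.4 and 11.2. Oxa1l, the inner membrane insertase that receives chains from the ribosome, had 259 and 271 against 185 and 183, a difference of -0.49 (adjusted p = 0.351). With the mean of probe sets Mto1 was at -0.49 and Oxa1l at -0.31. Tufm, the elongation factor that brings transfer RNAs, was at -0.42 and the initiation factor gene Mtif2 at -0.25, both chosen after their values were seen. Inside the replicate numbers the list's median was -0.37 and -0.13, and it was -0.04 with the mean of probe sets. It was -0.11 without the dim filter, with a filter at percentile 60 and with plain probe sets first.

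Aminoacyl-tRNA synthetases of mitochondria and their partners, which charge the transfer RNAs, had a median of 0.06 over 16 tested genes, with 5 apart and higher (31.2%, against 28.7% of all tested genes) and 1 lower (6.25%, against 18.6%). Gatc, a subunit of the enzyme that completes glutaminyl-tRNA, had signals of 83.2 and 87.0 against 139 and 161, a difference of 0.71 (0.19 to 1.24, adjusted p = 0.266). Both GFP-positive arrays lay well above both GFP-negative arrays, and the values within the replicate numbers were 0.64 and 0.78. Nars2 had 0.78 (adjusted p = 0.369), from 0.26 within replicate 1 and 1.30 within replicate 2, and Cars2 had -0.46 (adjusted p = 0.404), and with the mean of probe sets these were 0.20 and -0.16.

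Factors of ribosome assembly and ribosomal RNA maturation had a median of 0.08 over 22 tested genes, with 6 apart and higher (27.3%) and 4 lower (18.2%), shares near those of all tested genes. Fastkd2, an RNA-binding protein of the mitochondrial RNA granules, had 385 and 414 against 219 and 280, a difference of -0.65 (-1.22 to -0.09, adjusted p = 0.304), and -0.41 with the mean of probe sets. Trmt2b, a methyltransferase of ribosomal RNA, was at -0.52, and at -0.25 without GFP-positive replicate 2. Ngrn and Tfb1m were at 0.55 and 0.53 on dim probe sets, and Tfb1m was at -0.24 with plain probe sets first. Genes of mitochondrial DNA maintenance and transcription were the closest to level, with a median of -0.01 over 16 genes and all differences between -0.36 for Ssbp1 and 0.28 for Ppargc1b. Here the groups were apart for Ssbp1 and Polg2 on the lower side and for Mterf2 and Slirp on the higher (12.5% each way, against 18.6% and 28.7% of all tested genes), the last 2 turning to -0.01 and -0.16 under median scaling. Nrf1 and Gabpa themselves, chosen after their values were seen, were at 0.22 and -0.00.

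**Figure D5:**
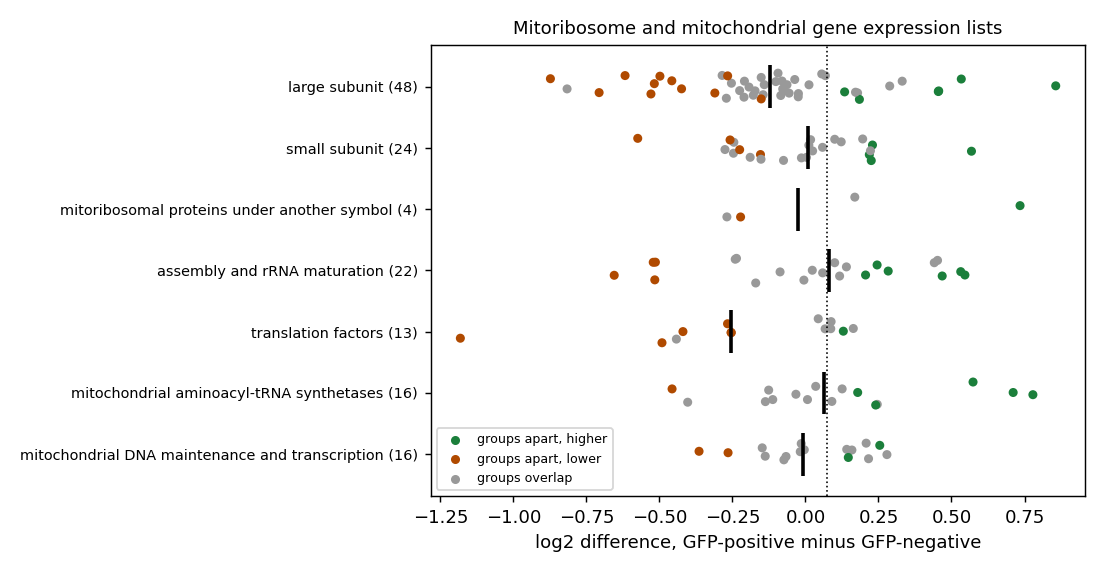
Log2 differences, GFP-positive minus GFP-negative, of the tested members by subunit and of the other lists of mitochondrial gene expression, 1 point per gene, green where the groups were apart and higher, brown where apart and lower, grey where they overlapped, with a black bar at each median and a dotted line at the median of all tested genes (0.07). Translation factors have the lowest median at -0.25, with 7 genes below 0 and 6 above. Mto1 at -1.18 is the single gene beyond 1 in size.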

How the data were processed

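Total RNA was extracted with Trizol, labelled with biotin and hybridised to Affymetrix arrays, per the labels. The authors deposited linear intensities, 1 per probe set, with array means scaled alike as the values show, and the summary software is not given in the sources used here. The array medians were not alike: over all probe sets they were 37.0 and 36.0 without GFP against 46.0 and 45.2 with GFP. This offset follows the groups, so array scale and group cannot be told apart. Values were taken as log2(value + 16). Of 45101 probe sets, 34958 had 1 gene symbol in the platform annotation, 932 several and 9211 none. Probe sets were chosen by the mean of these log2 values, and a gene was tested if its probe set passed percentile 40 of those that are no controls. Tests were two-sided, with limma 3.58.1 in R 4.3.3, group as the only term, 2 residual and 3.74 prior degrees of freedom, and Benjamini-Hochberg adjustment over 12253 genes. The fit was also run on simulated data, with changes larger than any difference of a member and a common spread for all genes. That run says nothing about differences of the members' size.

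Named were the 8 members of the largest difference in each direction with groups apart, the 6 brightest, those nearest the filter, those with opposed probe sets, and 2 genes a list and direction. Members and lists were chosen with earlier results of these data known. Subunit and bacterial counterpart were assigned by the proteins' structural names. Alternatives covered normalization, pseudocount, filter, probe set choice, variance model, replicate block and each array left out. With 2 arrays a group, the number of arrays limits the precision.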

Additional observations from a re-analysis of the deposited data

Results flagged for a closer look

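In all, 4 members had differences of opposite direction in the replicate numbers, with at least 0.3 in size in each, which was not tested. Mrpl14 differed by 0.39 within replicate 1 and by -0.36 within replicate 2. For Mrpl2 the values were -0.79 and 0.40. Mrpl9 had 0.33 and -0.38, and Mrps18a had -0.48 and 0.43. Each value compares 1 array with 1 array, and the replicate numbers also differ in sex-linked genes.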

How the results depend on the processing

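No member was called under any of the 15 alternatives, and the smallest adjusted p of a member (limma, 0.340 as reported) lay between 0.198, for Mrps15 under median scaling, and 0.453, for Mrps15 without the dim filter. Over all genes limma called 4, and 50 with a filter at percentile 60, 175 with a pseudocount of 64 and 241 with trend and robust settings, against 0 under quantile normalization, cyclic loess, median scaling, no filter, a pseudocount of 1, the replicate block, and each array left out. Gpr15 was called with adjusted p = 0.0214, 0.00274 and 0.00106 under the first 3 of these. Members with an unadjusted p under 0.05 on the higher side numbered 2 with plain probe sets first and 1 each with a pseudocount of 64, trend and robust settings and the replicate block. On the lower side they numbered 12 under median scaling, 4 under quantile normalization, and 3 each under cyclic loess, a pseudocount of 64, trend and robust settings and the replicate block. They numbered 2 there with percentile 60, and 0 with the mean of probe sets, no filter, plain probe sets first and a pseudocount of 1. Over all 12253 tested genes, both sides together, 1783 had such a p as reported. The number was 2189 under median scaling, 1469 under quantile normalization, 1463 under cyclic loess and 2129 with the replicate block. Shares by side are not given for these settings, so the counts of members there are no result about them.

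The replicate block used numbers that the labels do not call pairs; deviations of same-numbered arrays correlated at 0.20, and the block called 0 genes. The counts of members apart are given here without the matching shares of all tested genes. Members apart and higher numbered 5 under cyclic loess and quantile normalization and 1 under median scaling, and 44 were apart and lower under median scaling. With 1 array left out, where fewer arrays have to be apart, these were 13 to 22 and 23 to 36.

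The member median was -0.13 under cyclic loess, -0.15 under quantile normalization, -0.37 under median scaling, -0.031 with the mean of probe sets, -0.058 with a pseudocount of 64 and -0.11 to 0.020 with 1 array left out. Its distance from all genes was -0.091 with percentile 60, -0.11 with the mean of probe sets and with a pseudocount of 64, -0.18 without filter and -0.19 to -0.063 with 1 array left out. The small subunit median was -0.028, -0.039, -0.29 and -0.0085 under cyclic loess, quantile normalization, median scaling and the mean of probe sets (-0.063 to 0.032 with 1 array left out), and that of members without bacterial counterpart -0.12, -0.13, -0.39 and -0.019 (-0.14 to 0.019). Under median scaling the medians were -0.41 for the large subunit (-0.15 to -0.0017 with 1 array left out), -0.37 for members with a bacterial counterpart (-0.12 to 0.040), -0.20 for assembly (-0.062 to 0.21), -0.30 for DNA maintenance (0.027 to 0.045), -0.20 for synthetases (0.017 to 0.092), -0.32 for genes under another symbol (-0.051 to 0.097) and -0.53 for translation factors (-0.23 to -0.12). With percentile 60 the genes under another symbol had -0.22, and with the mean of probe sets translation factors had -0.035.

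Directions turned with plain probe sets first for Mrpl38 (-0.11), Mrps9 (-0.31), Mrpl39 (0.21), Mrpl19 (0.86), Mrpl13 (-0.32), Mrpl21 (1.18), Mrpl15 (-0.49) and Tfb1m (-0.24). With the mean of probe sets they turned for Mrpl50 (-0.00056), Mrpl19 (0.023), Mrps11 (0.23), Mrpl21 (0.14) and Mrps25 (0.37). Under median scaling they turned for Mrps12 (-0.038), Mrps9 (-0.073), Mrps26 (-0.078), Mrpl13 (-0.25), Mrps18c (-0.19), Mrpl15 (-0.017), Mterf2 (-0.012), Slirp (-0.16) and Gfm2 (-0.14), and Gfm2 turned under cyclic loess (-0.0079) and quantile normalization (-0.013). With 1 array left out they turned for Mrpl52 (-0.38 to 0.037), Mrpl32 (-0.38 to 0.19), Mrpl13 (-0.21 to 0.35), Mrps18c (-0.17 to 0.41), Mrps11 (-0.84 to 0.38) and Mrpl21 (-0.35 to 0.20). Beyond the choice of probe set and scaling, the cause was not tested. The lone array of a group was then assumed to vary like the other group. Signals near the dim filter limit what can be said of Mrpl45, Mrpl38 and Mrpl37.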
